A study of Mus musculus with 4 samples.

Results

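Enpep, Brinp3, Adgrf1, Ntn1, Prlr, Rnase10, Gria2 and Selenom are 8 mouse genes that were listed because earlier results from these libraries showed them near absent in control cells and high in the library titled Mll3/4 deleted LSK. They are 8 of the 32285 genes measured. They were chosen by their UMI counts in the control and Mll3/4-labelled libraries, so those values are given as a description, without a test. The data bear out the description for 7 of the 8, since Selenom had UMIs in 21.9% of control cells and was not near absent there.

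The cells were bone marrow LSK cells, which are lineage negative, Sca1 positive and Kit positive and hold blood stem cells and early progenitors. All were CD45.2 positive, the mark of the transplanted donor cells, and were taken 10 weeks after transplantation. RNA and 6 surface proteins were read in single cells. There was 1 library for each of 4 genotypes, which were control, Mll3 deleted, Mll4 deleted and Mll3/4 deleted. The allele, the way deletion was induced, the number of mice pooled, their sex and their age at transplantation are not given in the sources used here. Per the title of the series, the study asked how Mll3 and Mll4 act together in stem cell renewal and in the choice between myeloid and B cell fates. Mll3 and Mll4 are the proteins of Kmt2c and Kmt2d, enzymes that methylate histone H3 at enhancers.

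Libraries are called here by their labels because the transcripts of the targeted genes do not settle them. Where 4 values are given in a row, they follow the order control, Mll3, Mll4 and Mll3/4. Kmt2c was at 68.3, 35.1, 61.0 and 42.2 CPM, and Kmt2d at 24.6, 21.5, 22.2 and 25.3 CPM, where CPM is the UMIs of a gene per 1000000 UMIs of its library or cell group. Kmt2d was thus not lower in the Mll3/4-labelled library than in the control. A 3-prime count can lie outside a deleted exon, in which case it checks nothing. A UMI (unique molecular identifier) stands for 1 captured transcript. The 4 libraries kept 6851, 5803, 4609 and 4568 cells, with medians of 14137, 14925, 20791 and 8817 UMIs per cell, so the Mll3/4-labelled library was the shallowest. Pairs of libraries shared 7 to 12 cell barcodes.

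The Mll3/4-labelled library stood apart from the other 3 as a whole. The 7 B-lineage markers summed to 11954 CPM in it, against 31.1 CPM in the control, 270 with the Mll3 label and 33.4 with the Mll4 label. The 8 stem cell markers summed to 14.5 CPM in it and to between 281 and 510 CPM in the others. Of its 4568 cells, 4542 (99.4%) had at least 3 UMIs of Cd79a and Vpreb1 together, which is the rule used here for a B-lineage cell. Cd79a encodes a part of the B cell receptor complex and Vpreb1 a part of the surrogate light chain of early B cells. The label LSK thus covers cells of largely different kinds in the 4 libraries, and a change in kind cannot be told apart from a change within cells when whole libraries are compared. Since each genotype is a lone library, differences were not checked against replicates and are not tested, and all intervals are 95% intervals that cover counting error only.

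The listed genes come from unrelated families. Enpep encodes glutamyl aminopeptidase, a surface enzyme that cleaves angiotensin II and is known on early B cells as BP-1 or 6C3 antigen. Prlr encodes the prolactin receptor, a cytokine receptor that signals through Jak2 and Stat5, and Adgrf1 an adhesion-type G protein-coupled receptor. Gria2 encodes a subunit of AMPA glutamate receptors, the channels of fast excitatory synapses, and Ntn1 the secreted axon guidance cue netrin 1. Brinp3 encodes a protein best known from neurons, Rnase10 a secreted member of the ribonuclease A family best known from the epididymis, and Selenom a selenium-containing protein of the endoplasmic reticulum.

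The sequence just upstream of 3 of these genes is shown because they represent a B cell surface antigen, a gene of a cluster whose members were high together, and a gene of another tissue. RefSeq promoter entries on GRCm38.p6 matched 7 of the 8 genes, with 12 entries in all. The first entry of each was used, and 3-prime counts cannot say which start site was active. The 250 bases before the annotated start are printed 5′ to 3′ on the gene's strand. Capitals mark matches to the E-box letters CANNTG, the core bound by E proteins such as E2A, which read the same on both strands.
Enpep, chr3:129332750-129332999, strand -: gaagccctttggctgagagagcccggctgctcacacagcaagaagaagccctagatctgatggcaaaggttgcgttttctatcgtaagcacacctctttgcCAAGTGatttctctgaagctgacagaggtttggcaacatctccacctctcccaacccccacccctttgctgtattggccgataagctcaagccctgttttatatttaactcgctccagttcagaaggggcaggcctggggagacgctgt
Rnase10, chr14:51007501-51007750, strand +: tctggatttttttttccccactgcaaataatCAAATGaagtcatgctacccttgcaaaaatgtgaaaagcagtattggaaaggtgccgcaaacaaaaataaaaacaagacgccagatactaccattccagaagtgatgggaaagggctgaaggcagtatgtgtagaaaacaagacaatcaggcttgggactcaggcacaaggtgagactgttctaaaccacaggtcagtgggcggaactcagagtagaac
Gria2, chr3:80802836-80803085, strand -: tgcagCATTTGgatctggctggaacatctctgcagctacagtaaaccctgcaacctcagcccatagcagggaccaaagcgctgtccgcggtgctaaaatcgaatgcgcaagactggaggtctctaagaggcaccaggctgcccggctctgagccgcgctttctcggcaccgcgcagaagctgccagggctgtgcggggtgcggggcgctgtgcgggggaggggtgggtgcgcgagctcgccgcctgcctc

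No motif searched was shared by all 7 upstream windows. CANNTG was found in 5 of the 7, and in 66.2% of all 32851 promoter entries of the same length. Its subset CAGNTG was found in 1 of the 7, against 44.8% of all. CCCNNGGG, letters within the EBF site, was found in 0 of the 7, against 11.8% of all. TTCNNNGAA, the STAT5-type site, was found in 1 of the 7, in Enpep, against 7.02% of all. Both strands were searched, and a match or its absence describes only these letters in this window. The counts depend on the entry used. The second Prlr entry holds 3 CAGNTG and 1 TTCNNNGAA, and the second Rnase10 entry holds 2 CAGNTG, while the third Prlr entry holds 0 of both. The share of G and C ran from 43.2% to 64.8% over the 7 windows, with a median of 52.4% over all entries.

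Enpep lies on chromosome 3 (chr3:129269175-129332720, minus strand, protein coding, GRCm38). Its UMIs numbered 3 in the control, 34 and 40 in the single-deletion libraries and 16788 in the Mll3/4-labelled library. These were 0.0276, 0.354, 0.359 and 350 CPM. The Mll3/4-labelled level was far above the other 3, and the Mll3-labelled and Mll4-labelled levels were alike and both above the control. The ratio of the Mll3/4-labelled library to control was 12669 (4334 to 61440), where 3 control UMIs set the width. Enpep was detected in 3 control cells and in 81.2% of the cells of the Mll3/4-labelled library.

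Prlr (chr15:10177238-10349180, plus strand) had 25, 41, 255 and 21539 UMIs in the same order. These were 0.230, 0.426, 2.29 and 449 CPM. The Mll4-labelled library came next, at 9.94 times the control (6.58 to 15.7, a log2 ratio of 3.29), a log2 ratio that was 2.70 with the stricter cell filter. The Mll3/4-labelled library was at 1951 times the control (1321 to 3015), and 88.4% of its cells had a UMI.

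Adgrf1 (chr17:43270329-43324737, plus strand) was the least abundant of the 8 in the Mll3/4-labelled library. It had 2, 3, 8 and 2641 UMIs, or 0.0184, 0.0312, 0.0717 and 55.0 CPM. The first 3 libraries overlapped within their counting intervals. The Mll3/4-labelled library was at 2990 times the control (827 to 24699), with UMIs in 39.4% of its cells.

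Gria2 (chr3:80681450-80802835, minus strand) had 60, 136, 240 and 35407 UMIs, or 0.552, 1.41, 2.15 and 737 CPM. It was the listed gene with the most UMIs in the Mll3/4-labelled library, where 93.1% of cells had one. The Mll3-labelled library was at 2.56 times the control (1.88 to 3.53), the Mll4-labelled at 3.90 times (2.93 to 5.27) and the Mll3/4-labelled at 1336 times (1038 to 1751). These intervals treat UMIs as independent, but 1 control cell held 41.7% of the control UMIs. Cells with a UMI made up 0.336% (0.213 to 0.503) of the control and 0.534% (0.363 to 0.757) of the Mll3-labelled library. In the Mll4-labelled library they made up 0.694% (0.475 to 0.979), and both intervals overlapped that of the control. The subunit's transcript was thus found in most cells of the Mll3/4-labelled library only.

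Ntn1 (chr11:68209364-68400823, minus strand) had 4, 10, 10 and 4826 UMIs, or 0.0368, 0.104, 0.0897 and 101 CPM. The first 3 libraries did not differ beyond counting error. The Mll3/4-labelled library was at 2731 times the control (1066 to 10029), and 55.2% of its cells had a UMI. Gm12305, annotated inside an intron of Ntn1 on its strand, went from 0 to 12.5 CPM, and reads of the pair cannot be told apart with certainty.

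Brinp3 (chr1:146494760-146902472, plus strand) had 0 UMIs in the control and Mll3-labelled libraries, 4 in the Mll4-labelled and 6659 (139 CPM) in the Mll3/4-labelled library. A count of 0 was taken to allow up to 3 UMIs per library. On that basis Brinp3 was at least 5025-fold higher in the Mll3/4-labelled library than in control, and the exact lower limit was 4086-fold. A UMI was found in 52.1% of the cells of the Mll3/4-labelled library and in 3 cells of the Mll4-labelled.

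Rnase10 (chr14:51007751-51010758, plus strand) had 26, 30, 72 and 22610 UMIs, or 0.239, 0.312, 0.646 and 471 CPM. The control and Mll3-labelled libraries overlapped, and the Mll4-labelled was at 2.70 times the control (1.70 to 4.41). A single cell held 13.9% of the Mll4-labelled UMIs. The Mll3/4-labelled library was at 1969 times the control (1343 to 3015), yet only 62.2% of its cells had a UMI, fewer than for Enpep at a lower level.

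Selenom (chr11:3514684-3517351, plus strand) followed another pattern. It had 2111, 7498, 2018 and 30535 UMIs, or 19.4, 78.0, 18.1 and 636 CPM. UMIs were found in 21.9%, 59.6%, 24.5% and 92.2% of cells. The Mll3-labelled library stood between, at 4.02 times the control (3.83 to 4.22), and the Mll3/4-labelled at 32.7 times (31.3 to 34.2). The Mll4-labelled level was 0.932 times the control (0.876 to 0.991).

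**Figure D1:**
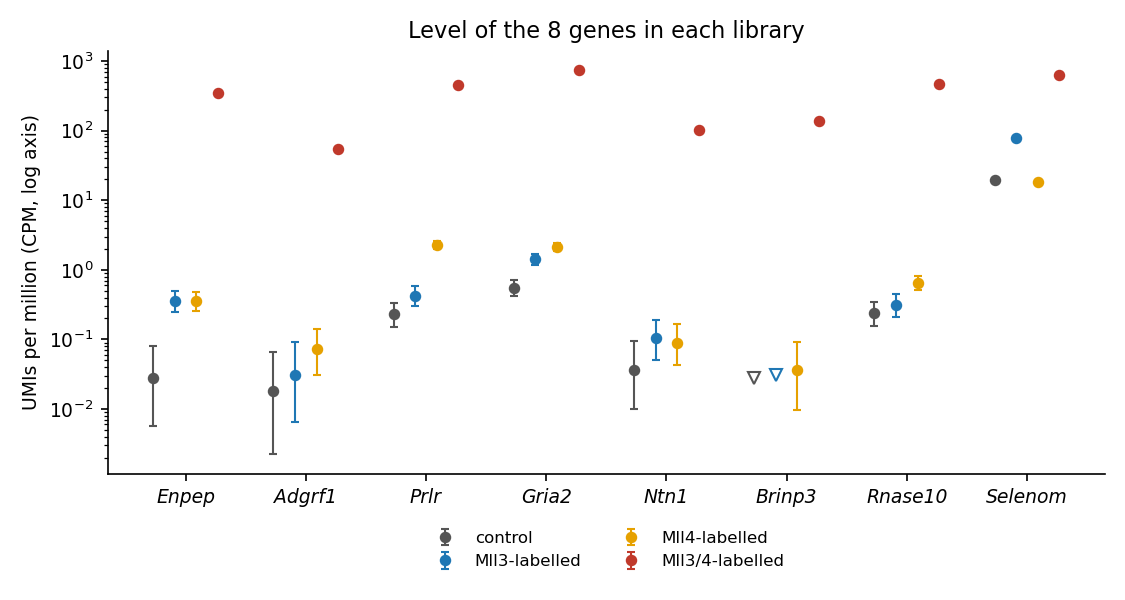
Level in CPM (log axis) of each of the 8 genes in the 4 libraries, 1 point per library, with exact 95% Poisson intervals (narrower than the point where not visible). Open triangles stand for a count of 0 and mark the level of 3 UMIs. The red points of the Mll3/4-labelled library lie between 55.0 and 737 CPM, and only Selenom exceeds 3 CPM in another library.

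Among all genes with at least 5 CPM in 1 of the 2 libraries compared, 3.66% (384 of 10487) were at least 8-fold higher in the Mll3/4-labelled library than in control. All 8 listed genes were among them, which the choice of the genes fixed. A further 4.73% were at least 8-fold lower. With the Mll3 label, 0.158% of 10116 genes were at least 8-fold higher than control and 0.0494% lower, and with the Mll4 label 2.72% of 10378 were higher and 0.0675% lower. Only Selenom of the 8 reached 5 CPM in those comparisons, and it was called in neither, so 0 of the 8 were called. With neither the 5 CPM nor the 8-fold limit applied, counting intervals lay above the control for 4 of the 8 in the Mll3-labelled library (Enpep, Prlr, Gria2 and Selenom). They lay above it for 4 in the Mll4-labelled library (Enpep, Prlr, Rnase10 and Gria2), while Selenom lay below. These intervals treat UMIs as independent, and for Gria2 the shares of cells with a UMI overlapped that of the control in both libraries. The mutant libraries share the 1 control library.

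Several of the genes were detected in the same single cells of the Mll3/4-labelled library. The genes were chosen as high there and near absent in control, so the contrast with control was largely fixed by the choice. To compare cells of unequal depth, each cell was thinned at random to 3000 UMIs, which left out 13, 16, 128 and 33 shallower cells. In the Mll3/4-labelled library 3798 of 4535 cells (83.7%, exact binomial interval 82.6 to 84.8) then held UMIs of at least 3 of the 8 genes, and 38.1% held at least 5. The median was 4 genes per cell. In the other libraries 0 of 6838, 0 of 5787 and 0 of 4481 cells held 3, which allows shares of up to 0.0439%, 0.0518% and 0.0669%. At least 1 gene was found in 6.01% of control, 21.0% of Mll3-labelled and 5.80% of Mll4-labelled cells, and Selenom by itself in 5.79%, 20.4% and 4.55%. Without thinning, 97.9% of the cells of the Mll3/4-labelled library held at least 3. Without Selenom, left out after its values were seen, 69.9% of the cells of the Mll3/4-labelled library still held at least 3 of the other 7.

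**Figure D2:**
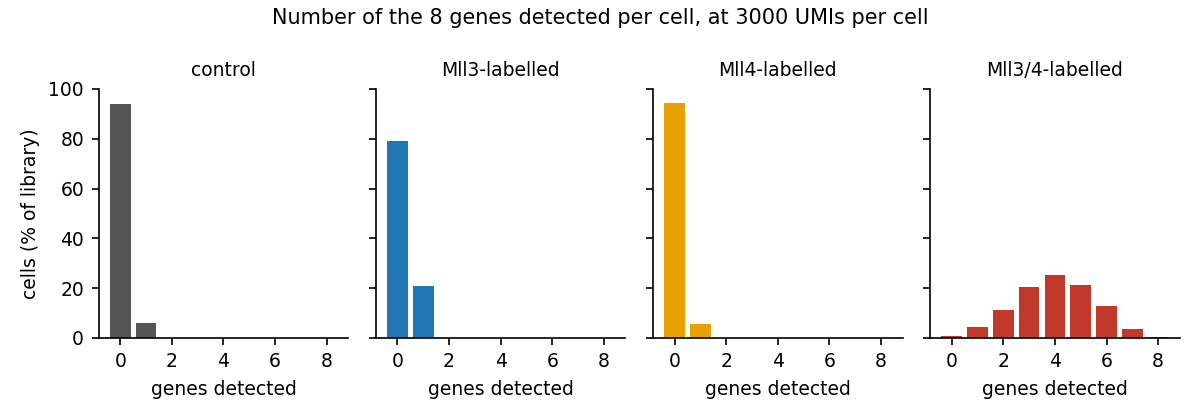
Number of the 8 genes with a UMI in a cell (x axis) against the share of cells in each library (y axis, %), after thinning to 3000 UMIs per cell. Cells of the Mll3/4-labelled library centre on 4 genes, and cells of the other 3 libraries lie at 0 or 1 apart from 7 Mll3-labelled and 3 Mll4-labelled cells with 2.

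Within the Mll3/4-labelled library most of the 8 genes were found somewhat more often in cells with another of the 8. Over the 28 pairs, the share of cells with both genes divided by the product of their shares had a median of 1.07 and ran from 0.997 for Enpep with Selenom to 1.17 for Brinp3 with Adgrf1. It was above 1 in 26 pairs. The ratio is held near 1 for genes found in most cells. Brinp3 was found in 33.7% of cells with Enpep and in 28.5% of cells without, and Gria2 in 84.1% and 73.8%. Rnase10 was found in 56.8% of cells with Brinp3 and in 45.9% of cells without. Selenom was at 74.2% with Enpep and 74.6% without. The pairs share their cells and sparse counts, so these ratios are a description of this library.

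Rnase10 was the most uneven of the 8 across cells. After thinning its mean was 1.80 UMIs per cell, but 50.6% of cells had none, where an even spread of the same mean would leave 16.5%. Its variance was 4.39 times its mean, against 1.10 for Adgrf1 and 2.36 for Gria2, the next highest. The 10% of cells with most Rnase10 held 47.5% of its UMIs. Cells with 10 or more Rnase10 UMIs (117 cells) had a median of 6001 UMIs before thinning, and cells with none (2296 cells) one of 10072. The part of depth in this spread was not tested.

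Detection was lower in cells with many transcripts of dividing cells. The Mll3/4-labelled cells were split by the thinned UMIs of 16 genes of the G2 and M phases, such as Mki67 and Top2a. All 8 listed genes were found in a smaller share of the 997 cells with 3 or more such UMIs than of the 2478 cells with 0, and the intervals did not overlap for 6. Rnase10 was found in 36.1% against 52.8%, Selenom in 60.8% against 78.8% and Prlr in 53.9% against 68.9%. Gria2 went from 82.6% to 70.7%. Enpep was at 55.3% and 56.7%, and Ntn1 at 23.6% and 27.6%, with overlapping intervals. Rag1, a recombination enzyme of B progenitors that is not listed, was at 42.6% against 71.5%. The dividing cells were deeper before thinning, with medians of 15267 and 7461 UMIs, and the part of depth in these shares was not tested.

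**Figure D3:**
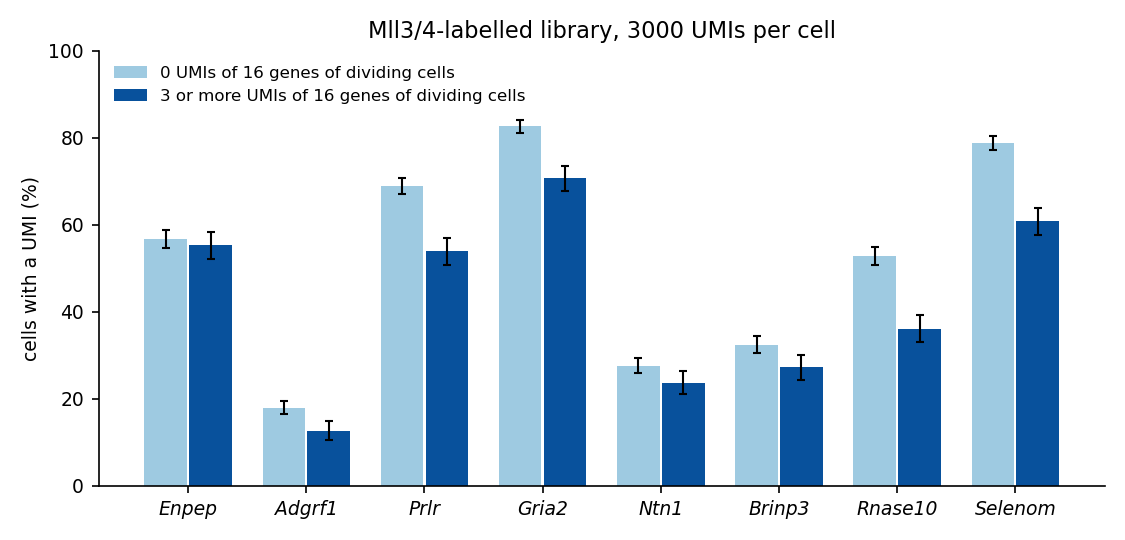
Share of cells of the Mll3/4-labelled library with a UMI of each gene (y axis, %), at 3000 UMIs per cell, in cells with 0 (light) or 3 or more (dark) UMIs of 16 genes of dividing cells. Bars start at 0 and carry exact binomial 95% intervals. Rnase10, Selenom, Prlr and Gria2 are lower in the dark bars, and the Enpep bars overlap.

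Surface protein levels went along with smaller differences. For each antibody the cells of the Mll3/4-labelled library were ranked by its share of the cell's antibody counts, so that a high share of one lowers the others, and cut into 4 equal groups. All 8 genes were found in more cells of the lowest than of the highest CD48 group, with intervals apart for 3. Enpep was at 63.8% and 51.8%, and Brinp3 at 38.2% and 25.8%. The unlisted Rag1 went the same way, with 66.2% and 59.5% and intervals apart. All 8 were found in more cells of the highest than of the lowest CD150 group, with intervals apart for 6. Rag1, which is not listed, also did so, with 68.7% against 58.5%, and the groups had medians of 7391 and 9586 UMIs before thinning. By CD117, 7 of the 8 were found in more cells of the highest group, with intervals apart for 4, and Enpep was at 62.9% against 51.2%. The part of depth in these shares was not tested. Rnase10 differed most by CD34, with 42.0% in the highest group and 54.9% in the lowest.

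B-lineage cells of the Mll3-labelled library offered a comparison with cells that carry the same lineage genes. The rule of at least 3 UMIs of Cd79a and Vpreb1 found 206 cells there, 48 in the control and 127 in the Mll4-labelled library. These were of 2 kinds. In the Mll3-labelled library 29 of the 206 cells had at least 20 UMIs of Jchain, a protein of secreted antibody, and the other 177 had at most 2. The Jchain-high cells had plasma or mature B cell markers at 55527 CPM in sum and Vpreb1 at 1.24 CPM, so they entered by Cd79a alone. They made up 26 of 48 cells in the control and 106 of 127 in the Mll4-labelled library. The split by Jchain was added after the data were seen.

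At 3000 UMIs per cell, 46 of the 206 cells (22.3%, 16.8 to 28.6) of the Mll3-labelled library held at least 1 of the 8 genes, and 29 of the 177 (16.4%) without the Jchain-high cells. In the 5335 cells of that library with 0 UMIs of Cd79a and Vpreb1, the share was 20.9% (19.8 to 22.0). The shares did not differ beyond counting error, and Selenom made up most of both. Without Selenom the shares were 3.40% (1.38 to 6.88) and 0.581% (0.395 to 0.824), which did not overlap. In the Mll3/4-labelled library 99.5% of B-lineage cells held at least 1 of the 8.

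Enpep and Prlr accounted for most of the other UMIs in the 177 cells. Enpep had 24 UMIs in 15 of them, or 5.66 CPM, against 10 UMIs or 0.115 CPM in the cells without Cd79a and Vpreb1, a ratio of 49.0 (22.6 to 115). Of the 10210 genes compared between these cell groups, 1.27% were at least 8-fold higher in the B-lineage cells and 4.14% lower, and Enpep was the 1 listed gene among the higher. Prlr had 16 UMIs in 13 cells, or 3.77 CPM against 0.0346, a ratio of 109 (31.2 to 583), but stayed under 5 CPM. Both genes were found in 4 cells. Rnase10 had 8 UMIs, Ntn1 3, Adgrf1 1, and Brinp3 and Gria2 0. In the 22 such cells of the control library Enpep, Adgrf1, Prlr and Rnase10 had 1 UMI each, too few to compare. In the 21 such cells of the Mll4-labelled library Enpep had 17 of the library's 40 UMIs, all in 4 cells.

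B-lineage cells of the Mll3/4-labelled library carried far more of each gene than those of the Mll3-labelled library. Enpep was at 355 against 5.66 CPM, a ratio of 62.7 (42.1 to 97.9). Prlr was at 455 against 3.77 CPM, a ratio of 121 (74.2 to 211), and Rnase10 at 478 against 1.89, a ratio of 253 (129 to 587). Selenom was at 645 against 51.4 CPM and had the smallest ratio, 12.5 (11.0 to 14.4). Gria2 went from 0 to 748 CPM, at least 1057-fold higher against 3 UMIs, with an exact lower limit of 860. Brinp3 went from 0 to 141 CPM, at least 199-fold higher, with a lower limit of 162. Ntn1 and Adgrf1 had ratios of 144 (49.3 to 699) and 237 (42.4 to 9346), where 3 and 1 reference UMIs set the width.

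The B progenitor genes themselves differed much less between the same cells. Among 9919 genes compared, 3.80% were at least 8-fold higher in the Mll3/4-labelled B-lineage cells and 1.99% lower, with a median log2 ratio of 0.05. All 8 listed genes were among the higher, at a median log2 ratio of 7.13. Of the 18 B progenitor genes, 0 were at least 8-fold higher, 2 were lower, and the median was 0.97. Cd79a had a ratio of 2.17 (2.12 to 2.22) and Vpreb1 1.98 (1.93 to 2.03). These 2 of the 18 are the genes of the rule that chose the cells, so their presence in both groups was fixed. Pax5, the B cell identity factor, which is not in the rule, had a ratio of 1.95 (1.80 to 2.12). Il7r, the interleukin 7 receptor, was the highest at 5.67 (5.28 to 6.09). Vpreb2, a near copy of Vpreb1 whose reads can be shared with it, was at 0.655 against 222 CPM, and Bst1, a surface enzyme also known as CD157, at 2.98 against 40.8 CPM. The Mll3/4-labelled values are those that chose the 8 genes, so the contrast with the B progenitor list is a description. The Mll3/4-labelled cells had a median of 8788 UMIs against 22327, and the 16 genes of dividing cells had a median log2 ratio of -1.51. The part of depth and division in the result was not tested.

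**Figure D4:**
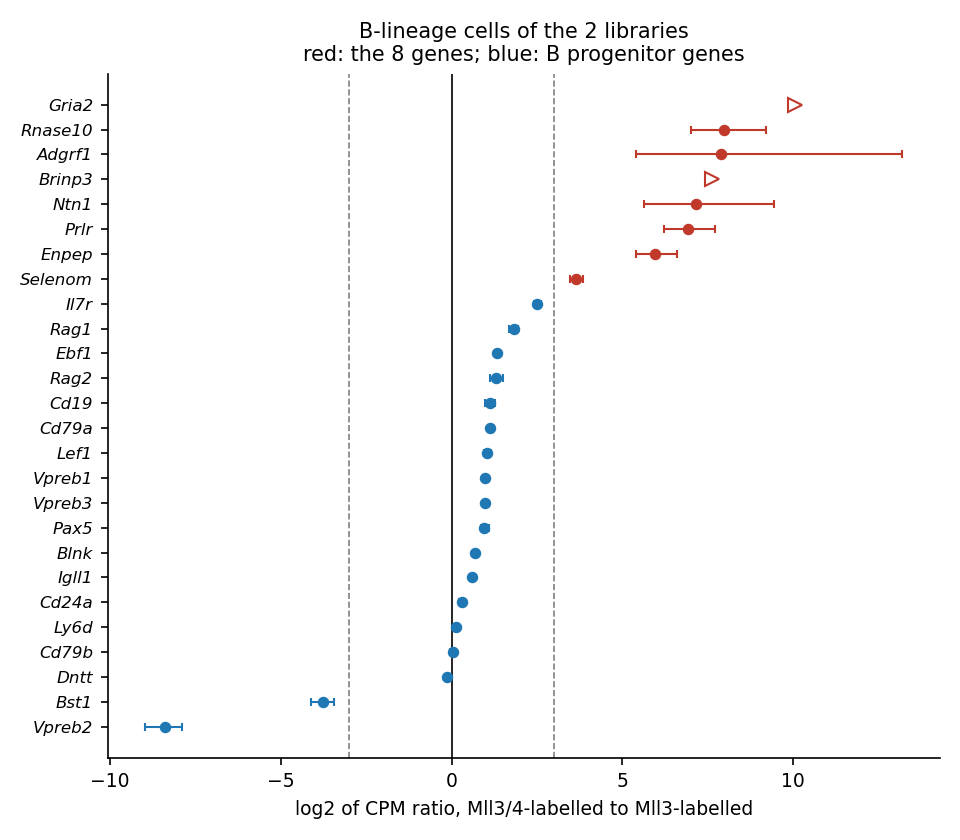
Log2 ratio of CPM between B-lineage cells of the Mll3/4-labelled and Mll3-labelled libraries (x axis), Jchain-high cells left out, for the 8 genes (red) and 18 B progenitor genes (blue), with exact 95% intervals of counting error. Open triangles are lower bounds against 3 UMIs where the Mll3-labelled count was 0, and dashed lines mark 8-fold. Every red point lies right of the upper dashed line, and Vpreb2 and Bst1 lie left of the lower one.

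Very few cells of the Mll3/4-labelled library lay outside the B-lineage rule. The 15 cells with 0 UMIs of Cd79a and Vpreb1 held 2 Enpep, 3 Prlr, 1 Gria2 and 23 Selenom UMIs and 0 of the other 4 genes. Enpep was at 5.10 CPM in them (0.617 to 18.4) against 355 in the B-lineage cells. The 15 cells were deep, with a median of 25883 UMIs, and were picked by counts of 0 for abundant transcripts of the same library. The part of free RNA in the counts was not tested beyond this.

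Outside the Mll3/4-labelled library, the low counts lay in small groups of cells that differed from gene to gene. Prlr lay mostly in cells with at least 20 Jchain UMIs, which numbered 29, 30 and 125 in the first 3 libraries. They held 84.0%, 51.2% and 86.3% of the Prlr UMIs of their library. Prlr was at 32.5, 25.9 and 67.9 CPM in them and at 0.0370, 0.210 and 0.323 CPM in the rest. The Mll4-labelled library, with the highest Prlr total of these 3, also had the most Jchain-high cells.

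Enpep lay in cells of partly different kinds in the Mll3-labelled and Mll4-labelled libraries, although its totals were alike. The 24 Mll3-labelled cells with Enpep had Vpreb1 at 1283 CPM against 66.5 in the rest, and Rnase12 at 115 against 5.22. Cxcl12, a chemokine of marrow stroma, had 0 UMIs in them. The 17 Mll4-labelled cells had Cxcl12 at 5635 CPM against 5.08 and Lepr, the leptin receptor of stromal cells, at 536 against 0.594. The 8 stromal and endothelial markers were all detected and summed to 1845 CPM in them and 62.1 in the rest. B-lineage markers were also higher there, at 1515 against 28.6 CPM in sum. Of the 1515 CPM, Ebf1 gave 611 and was found in 13 of the 17 cells, while Cd79a gave 138 and was found in 4. Which kind of cell held the Ebf1 UMIs was not tested. Cxcl12 was found in 11 of these 17 cells and Vpreb1 in 4. Cxcl12, Rnase12 and, below, Ccr9 and Dntt were picked after their values were seen.

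Gria2 lay in few cells with many UMIs. Cells with at least 2 UMIs numbered 8, 21 and 23 in the first 3 libraries and held 45 of 60, 126 of 136 and 231 of 240 Gria2 UMIs. Ccr9, a chemokine receptor of lymphoid and dendritic progenitors, was at 106, 193 and 290 CPM in them and at 0.886, 1.23 and 6.50 CPM in cells without Gria2. Dntt, the polymerase that adds bases at V(D)J joints, was at 762, 623 and 641 CPM against 108, 178 and 39.6. The B-lineage markers were not higher there in the control and Mll3-labelled libraries, with sums of 19.3 against 31.2 and 20.7 against 271 CPM. In the Mll4-labelled library they were, at 366 against 30.8.

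Selenom was higher with the Mll3 label also in cells outside the B lineage. In cells with 0 UMIs of Cd79a and Vpreb1 it was at 79.1 CPM, against 19.4 in the same cells of the control, a ratio of 4.07 (3.87 to 4.28). Of 10106 genes compared there, 0.0693% were at least 8-fold higher and 0.0396% lower, and 0 of the 8 listed genes were among them. In each of the 3 libraries Selenom was highest in cells with a low share of CD48 antibody, a protein low on blood stem cells. From the lowest to the highest of 4 equal CD48 groups it went from 47.9 to 8.63 CPM in control, from 131 to 35.7 in the Mll3-labelled and from 32.2 to 12.8 in the Mll4-labelled library. The Mll3-labelled level exceeded the control level in each of the 4 groups.

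Most relatives and partners of the 8 genes were not at least 8-fold higher in the Mll3/4-labelled library. Over all genes compared, 3.66% were, so a count of 0 in a short list lies near that share. For Enpep, 0 of 10 aminopeptidases and angiotensin genes were at least 8-fold higher than in control, and 4 reached 5 CPM. Both Brinp relatives had 0 UMIs in the control and Mll3/4-labelled libraries, and 0 of 8 adhesion receptors were higher, with Adgrl4, an endothelial and stem cell receptor, lower at a log2 ratio of -4.95. None of the 13 netrin relatives and receptors reached 5 CPM, and Dcc and Unc5d, netrin receptors, had 0 UMIs. Gria1, a usual partner of Gria2 in the receptor, also had 0, and Gria3 was at 14.9 against 11.3 CPM. Of the 13 genes of selenoproteins and their synthesis, 0 were higher and 1, the peroxidase Gpx1, was lower, from 919 to 113 CPM.

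Among 12 genes of the Prlr pathway, 1 was at least 8-fold higher, and over all genes compared 3.66% were. Socs2, a feedback inhibitor induced by Stat5, was at 25.2, 45.4, 27.8 and 360 CPM. It was also the 1 gene of the list that was at least 8-fold higher between the B-lineage cells of the Mll3/4-labelled and Mll3-labelled libraries, at a log2 ratio of 3.78. Cish and Bcl2l1, other Stat5 targets, had log2 ratios of 1.77 and 2.74, while Pim1 had -2.01 and Stat5a itself -1.79. Members of the pathway thus differed in both directions.

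The ribonuclease relatives were the exception. Of 10 listed, 5 were at least 8-fold higher in the Mll3/4-labelled library, 1 was lower, and 6 reached 5 CPM. Of all genes that reached 5 CPM, 3.66% were higher. Rnase12 was at 1.48, 5.82, 1.59 and 1138 CPM in the 4 libraries. Rnase4, a widely expressed ribonuclease, was at 1.40, 2.33, 4.14 and 257 CPM, and Ang, the blood vessel growth factor angiogenin, at 1.87, 1.85, 1.35 and 86.5. Rnase9 and Rnase11 went from 0 UMIs in control to 14.8 and 12.9 CPM, at least 536-fold and 466-fold higher. Rnase6 was at 42.8 in control and 0.417 CPM in the Mll3/4-labelled library. Between the B-lineage cells of the Mll3/4-labelled and Mll3-labelled libraries, 5 of the 5 that reached 5 CPM were at least 8-fold higher. Their log2 ratios were 3.29 to 6.99, and 3.80% of all genes compared there were higher. Within the Mll3-labelled library Rnase12 was the 1 of them at least 8-fold higher in B-lineage cells than in cells without Cd79a and Vpreb1, at a log2 ratio of 7.48. Rnase4 and Ang overlap and share their first RefSeq start, so their counts are uncertain as a pair.

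These genes lie close together on chromosome 14. Of 26 genes within 250 kb of the Rnase10 start, 16 reached 5 CPM, 8 of those were at least 8-fold higher in the Mll3/4-labelled library and 1 was lower. The 8 include Rnase10 itself, which was chosen for being higher. Over all genes that reached 5 CPM, 3.66% were higher and 4.73% lower. The 8 genes lie within 175 kb, chr14:50931082-51106151, in the order Pnp, Pnp2, Rnase10, Rnase9, Rnase11, Rnase12, Rnase4 and Ang. Olfr750, an olfactory receptor gene between Rnase12 and Rnase4, was at 0.0184 CPM in control and 0.0833 in the Mll3/4-labelled library, below the 5 CPM needed. Pnp encodes purine nucleoside phosphorylase and was at 147 in control and 1278 CPM in the Mll3/4-labelled library, and Pnp2 was at 4.73 and 282 CPM. Pnp and Pnp2 overlap and are near copies, so the split of reads between them is uncertain. Outside that stretch, Osgep at -82.9 kb had a log2 ratio of 0.97, and Rnase6 at 116 kb had -6.65. In the Mll3-labelled and Mll4-labelled libraries 0 of the 8 genes reached a log2 ratio of 3, and the highest was Rnase12 with the Mll3 label, at 1.97.

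**Figure D5:**
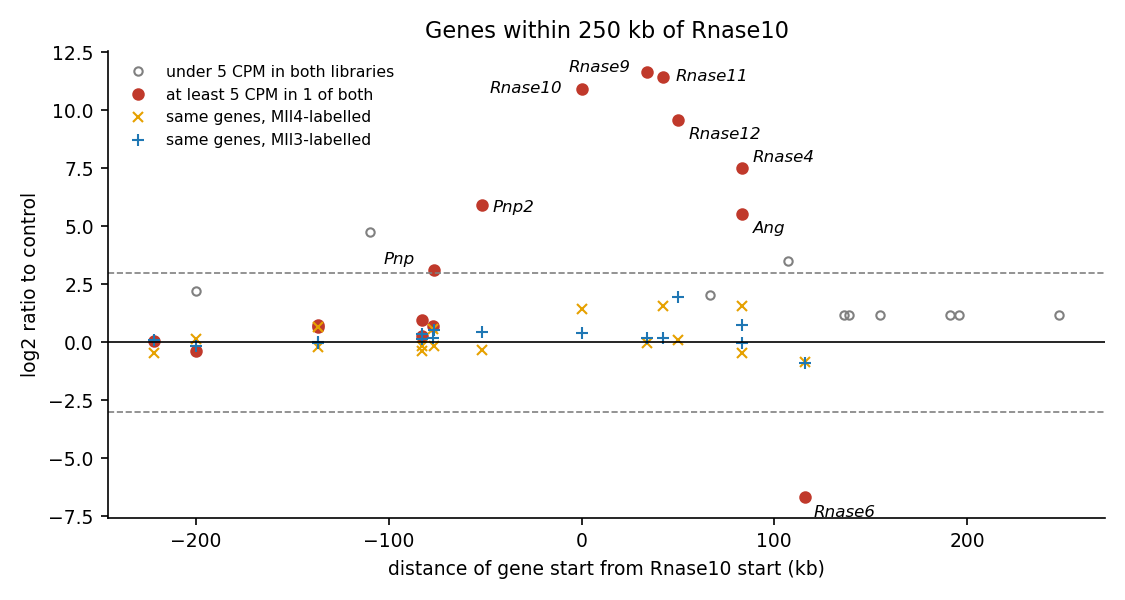
Log2 ratio to control (y axis, 0.5 UMIs added) of the genes within 250 kb of Rnase10 against the distance of their start from its start (x axis, kb). Filled red points are genes of the Mll3/4-labelled library with at least 5 CPM in it or in control, open points the genes below that, of which those at 1.18 have counts of 0 in both; crosses and plus signs show the Mll4-labelled and Mll3-labelled libraries. Dashed lines mark 8-fold, and 8 red points from Pnp to Ang lie above the upper one.

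The 7 higher neighbours of Rnase10 were each detected more often in cells with Rnase10 than in cells without. Pnp2 was found in 58.3% of cells of the Mll3/4-labelled library with Rnase10 and in 35.8% of cells without, after thinning. Rnase12 was found in 96.2% and 81.9%, and Rnase4 in 60.7% and 45.1%. The share with both divided by the product of the shares ran from 1.06 for Pnp, 1.08 for Rnase12 and 1.15 for Rnase4 to 1.19 for Ang, 1.24 for Pnp2, 1.36 for Rnase9 and 1.43 for Rnase11. For pairs of listed genes it was at most 1.17. The ratio cannot exceed 1 divided by the larger of the shares. It is thus held near 1 for genes found in most cells, such as Pnp and Rnase12, and its size cannot be compared across pairs. For Rnase9 and Rnase11 the shares were low, at most 7.10% of cells. B progenitor genes far from the cluster also differed between cells with 1 to 9 Rnase10 UMIs and cells with none. Il7r was found in 88.5% and 80.6%, and Vpreb3 in 94.6% and 88.2%, while Pax5 was at 53.3% and 52.3%. These genes were picked after their values were seen.

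Some neighbours of the other 7 genes were higher too, and others were not. Among the 48 genes formed by the 3 nearest on each side of each listed gene, 21 reached 5 CPM, 10 were at least 8-fold higher in the Mll3/4-labelled library and 1 was lower. Over all genes that reached 5 CPM, 3.66% were at least 8-fold higher and 4.73% lower. Of the 10, 5 lay at Rnase10. Others were Il7r and Capsl upstream of Prlr, Smtn next to Selenom and Gm12305 within Ntn1. Their log2 ratios in that order were 7.59, 3.44, 3.92 and 11.40. The start of Il7r is 647 kb from that of Prlr. Rgs18, on the left of Brinp3, was the 1 lower, at 165 CPM in control and 4.66 in the Mll3/4-labelled library.

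Other genes had a pattern like that of the 8. Likeness was measured as the share of a gene's CPM, summed over the 4 libraries, that lay in the Mll3/4-labelled library, among genes with at least 20 CPM there. Of 5734 such genes, 254 were left out (genes without a proper name, antigen receptor genes, genes of mitochondria and ribosomal proteins, Xist and Tsix), which with the 8 set aside gave 5472. The listed genes had shares of 99.35% (Prlr) to 99.97% (Brinp3), except Selenom at 84.63%. The 10 of these 5472 with the largest shares were Trpc4, Speer2, Crabp1, Crisp1, Pcdh19, Ly6c1, Ackr3, Gal, Crip2 and Slit1, from all of it for Trpc4 down to 99.34%. Among the genes left out, 13 had a share above that of Slit1, of which 12 were variable segments of the immunoglobulin heavy chain. Trpc4, a cation channel gene, had 1093 UMIs there and 0 in the other 3 libraries. Ly6c1, a surface antigen, was at 687 CPM and in 58.0% of thinned cells, and Crip2 at 686 CPM and in 80.8%. The other 8 were at 22.8 to 41.5 CPM and in at most 9.90% of cells. Of the candidates, 16 had over 99% of their summed CPM in that library.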

How the data were processed

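RNA and antibody tags were measured in 4 single-cell libraries, 1 per genotype. The deposited values are raw counts of UMIs per gene and barcode. Per the submitters' processing notes the authors used Cell Ranger 6.1.1 and mm10; strand settings and barcode filter are not given in the sources used here. Groups came from the sample titles. The members and gene lists were chosen with earlier results of these data known.

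Barcodes were kept at 1000 or more genes and no more than 10% mitochondrial UMIs, and the highest Scrublet scores (scanpy 1.11.5) were removed as doublets at 0.8% per 1000 cells (423, 298, 184 and 180 cells). UMIs were summed per library or cell group and divided by the total (CPM). Log2 ratios used 0.5 added UMIs. A gene was called at 5 CPM in 1 of both groups and an 8-fold ratio. Intervals are exact Poisson, Clopper-Pearson and conditional binomial, and a count of 0 was taken to allow 3. Shares were compared after thinning to 3000 UMIs per cell. The kept cells held 108713077, 96165517, 111502270 and 48018601 UMIs. Gene positions are from GENCODE release 21 for mouse on GRCm38, which held 32235 of the 32285 gene identifiers. The calls and thinning were tested on simulated data. Alternatives were other scalings (edgeR 4.0.16 for TMM), expression minimums, cell filters, depths and B-lineage rules. Named were the 8 members, the 3 nearest genes on each side, the 10 genes with the largest share of CPM, and list genes; others are said to be picked. Some results on single genes of the lists are not reported here.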

Additional observations from a re-analysis of the deposited data

How the results depend on the processing

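All 8 genes stayed at least 8-fold above control in the Mll3/4-labelled library under the 11 alternatives run for that count, and the lowest log2 ratio, that of Selenom, was 4.98. Of 253 ratios under the alternatives, 243 stayed within their counting interval. The sign changed for 1, that of Adgrf1 with the Mll3 label, whose log2 ratio was 0.66 from 3 and 2 UMIs and -2.12 with the stricter cell filter. The number called in the Mll3-labelled library was 0 except with no expression minimum, where it was 1. In the Mll4-labelled library it was 1 with a minimum of 1 CPM and 3 with none. The counts over all genes, in the order Mll3, Mll4, Mll3/4, were 41, 486 and 640 at a minimum of 1 CPM, 2, 72 and 127 at 50 CPM, and 206, 1174 and 1448 with none. Each minimum sets how many genes are tested. With equal weight per cell the Mll4-labelled count was 428, and the cause was not tested. Median-of-ratios scaling shifted all log2 ratios by -0.10, 0.05 and 0.11. The log2 ratio of Prlr in the Mll3/4-labelled library was 10.90, 11.63 with equal weight per cell and 10.12 with the stricter filter, and the cause was not tested.

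Shares of cells moved with depth by construction. Cells of the Mll3/4-labelled library with at least 3 of the genes made up 71.0% at 2000 UMIs per cell, 92.1% at 5000, 97.9% without thinning, 82.1% with the stricter cell filter and 69.9% without Selenom. B-lineage cells of the Mll3-labelled library with a gene made up 68.4% without thinning, 16.2% when chosen by Igll1 and Ebf1, 16.4% without Jchain-high cells and 3.40% without Selenom. Its other cells made up 14.8% at 2000 UMIs, 32.0% at 5000, 60.1% without thinning and 0.581% without Selenom. No paired analysis was possible because each genotype has 1 library. Depth limits the 3 reference libraries, where 7 of the 8 genes rest on 0 to 255 UMIs.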
